A study of Mus musculus with 7 samples.

Results

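Striated muscle contracts through sarcomeres, ordered arrays in which myosin filaments pull on actin filaments. The genes described here encode 10 parts of that apparatus, and they were selected by gene symbol from 23235 symbols in the deposited tables: Mybpc1, Tnni1, Tnnt1, Tnnt2, Tnnc1, Actc1, Acta1, Des, Myl4 and Myh3. They were chosen with their levels in these libraries known, so their differences between genotypes are given as descriptions, without tests. All 10 were measured in every library. A minimum of 1 FPKM on average over all libraries was passed by 9 of them, the lowest being Acta1 at 1.16 FPKM, while Myh3, at 0.0709 FPKM, fell below it. Levels are in FPKM, which is fragments scaled to transcript length and sequencing depth.

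The samples were cultured kidneys of fetal C57BL/6 mice. In 3 of them beta-catenin was activated and E2-2 deleted, and in 4 beta-catenin was activated and E2-2 was wildtype, so activated beta-catenin, through which Wnt ligands act on transcription, is common to both groups. Per the labels' protocols, tamoxifen (2 mg per 40 g of body weight) was injected into the pregnant mice at 10.5 days post coitum, and kidneys were taken at 10.5 days post coitum and cultured for 3 to 4 days. The labels name neither the Cre driver nor the alleles, nor the culture time of each library, nor whether libraries came from separate animals, so SEs and p-values cover the spread between libraries alone, part of which may be technical.

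In a sarcomere the actins Acta1 (skeletal) and Actc1 (cardiac) form the thin filament. Troponin sits on that filament and switches it on when calcium rises: troponin C binds the calcium (Tnnc1), troponin I holds the filament off (Tnni1), and troponin T ties the complex to tropomyosin (Tnnt1, Tnnt2). Myosin heavy chains such as the embryonic Myh3 are the motors, Myl4 is a light chain of embryonic and atrial muscle, and the slow-type myosin-binding protein C, Mybpc1, braces the thick filament. Desmin (Des) is the intermediate filament that links sarcomeres, and it is also made by smooth muscle, pericytes and the mesangial cells of the kidney. Muscle genes are classically switched on by MYOD-family factors paired with an E protein, the class to which E2-2 belongs, at sequences called E-boxes.

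Because E proteins bind E-boxes, promoters are shown for Mybpc1 and Tnnt1, whose levels did not overlap between genotypes, for Tnni1, which came close to that, for Acta1, which peaked in a single library, and for Des, the member with the most negative difference. Each runs from 250 bases before to 50 bases after a transcription start (RefSeq, GRCm38.p6), 5′ to 3′, with every E-box (CANNTG) in capitals.
Mybpc1, chr10:88605103-88605402, minus strand: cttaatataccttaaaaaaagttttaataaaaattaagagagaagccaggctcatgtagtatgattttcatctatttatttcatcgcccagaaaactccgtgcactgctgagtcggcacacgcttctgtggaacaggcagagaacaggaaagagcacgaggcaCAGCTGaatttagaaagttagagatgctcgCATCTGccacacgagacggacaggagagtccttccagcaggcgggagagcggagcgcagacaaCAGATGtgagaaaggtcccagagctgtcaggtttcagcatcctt
Tnni1, chr1:135799171-135799470, plus strand: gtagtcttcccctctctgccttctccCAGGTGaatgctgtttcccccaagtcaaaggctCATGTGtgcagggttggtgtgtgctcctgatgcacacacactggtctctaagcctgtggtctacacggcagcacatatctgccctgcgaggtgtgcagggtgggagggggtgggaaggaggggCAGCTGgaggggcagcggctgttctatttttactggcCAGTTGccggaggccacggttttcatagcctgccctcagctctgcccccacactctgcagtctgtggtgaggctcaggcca
Tnnt1, chr7:4515926-4516225, minus strand: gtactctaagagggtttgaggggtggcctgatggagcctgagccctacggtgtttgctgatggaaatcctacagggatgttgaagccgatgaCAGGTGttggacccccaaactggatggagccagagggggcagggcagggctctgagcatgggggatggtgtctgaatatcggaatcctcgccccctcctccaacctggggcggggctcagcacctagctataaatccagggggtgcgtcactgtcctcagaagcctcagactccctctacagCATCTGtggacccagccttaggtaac
Acta1, chr8:123894726-123895025, minus strand: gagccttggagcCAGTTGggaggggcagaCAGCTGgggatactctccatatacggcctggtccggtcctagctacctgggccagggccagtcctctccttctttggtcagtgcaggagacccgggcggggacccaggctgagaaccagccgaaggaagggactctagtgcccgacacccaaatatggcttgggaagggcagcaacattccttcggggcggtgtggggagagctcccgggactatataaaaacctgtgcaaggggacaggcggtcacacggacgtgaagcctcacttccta
Des, chr1:75360042-75360341, plus strand: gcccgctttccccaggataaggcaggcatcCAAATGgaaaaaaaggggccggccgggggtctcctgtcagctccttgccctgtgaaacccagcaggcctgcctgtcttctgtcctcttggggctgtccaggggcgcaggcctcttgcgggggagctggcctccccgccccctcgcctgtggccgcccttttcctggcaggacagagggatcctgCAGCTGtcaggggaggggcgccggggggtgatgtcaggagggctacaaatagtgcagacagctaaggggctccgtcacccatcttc

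All 10 members had a promoter entry, with 12 windows in all, since Tnni1 and Tnnt2 have 2 starts each (the Tnni1 windows overlap). An E-box, searched on both strands, was found in 11 of the 12 windows, and in 72.3% of 32851 mouse promoter windows of the same length. The form CAGCTG, 1 of the E-boxes matched by CANNTG, was found in 6 of the 12 windows (Mybpc1, both of Tnni1, 1 of Tnnt2, Acta1 and Des), against 16.3% of all windows. It was the same site in both Tnni1 windows. The form CACCTG was found in 4 of the 12 windows (33.3%), against 20.2% of all windows. Another form, CATCTG, was at 2 places in the windows of Mybpc1 and Tnnc1 and at 1 in that of Tnnt1, so in 3 of the 12 windows (25%), against 17.2% of all windows. The CArG box, which serum response factor binds, was found at Actc1 and Acta1, against 1.63% of all windows. The TCF/LEF motif CTTTGAT and the MEF2 site were found in none of the 12, against 3.73% and 3.19% of all windows. These matches describe the letters of the windows and say nothing of binding in these kidneys.

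Library E2-2 deleted replicate 2 stood apart from the other libraries in some genes. The nephron progenitor gene Six2 was at 62.8, 2.69 and 33.5 FPKM in the deleted libraries and at 53.4, 29.0, 54.6 and 74.8 FPKM in the wildtype libraries, and Pax2, a factor of early kidney tissue, was at 44.7, 4.79 and 23.7 FPKM in deleted libraries and at 30.8, 23.5, 40.6 and 53.7 FPKM in wildtype libraries. All 11 fetal kidney markers examined had a mean above 1 FPKM. Cited1, Wt1, Sall1 and Foxd1 were also lowest in deleted replicate 2, but the remaining markers were not. Gata3 was highest there, at 15.4 FPKM. Ret, Osr1, Hoxd11 and Cdh1, at 4.85, 9.26, 20.1 and 23.5 FPKM in that library, lay inside the wildtype range. Tcf4, which encodes E2-2, was at 33.5, 41.7 and 42.0 FPKM in the deleted libraries and at 48.8, 58.1, 28.7 and 39.2 FPKM in the wildtype libraries. A whole-gene level can miss the loss of a few exons, so it does not check the genotype. Depth, inferred from the deposited intervals, spanned 1.78 times from the shallowest to the deepest library. The deposited names of 3 libraries (deleted replicate 3, wildtype replicates 3 and 4) begin with BM and the remaining names begin with BI; differences are also given within each prefix.

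By limma over 13469 genes, 0 genes passed an adjusted p of 0.05 (0%), the smallest adjusted p being 0.733. An unadjusted p under 0.05 was reached by 605 genes (4.49%), 443 of them higher in deleted libraries (3.29%) and 162 lower (1.20%). That count was 250 without deleted replicate 2, 1473 without deleted replicate 1 and 336 without wildtype replicate 4. The groups did not overlap in 4.89% of genes, with the deleted libraries above in 2.84% and below in 2.05%. Of the 10 contractile genes, 2 (Mybpc1 and Tnnt1) had all deleted libraries above all wildtype libraries and 0 had them below. Without deleted replicate 2 there were 3, Tnni1 being the third, against 4.24% of all genes above and 2.58% below. Since the choice of members used this contrast, nothing is read from these counts. Differences below are of mean log2(FPKM + 1), deleted minus wildtype, with the SE of the limma fit.

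Mybpc1 had the largest difference and, in deleted replicate 2, the highest level of any member. The slow-type myosin-binding protein C gene (chromosome 10, 87981023 to 88067897) was at 13.7, 102 and 25.1 FPKM in deleted libraries and at 8.54, 10.2, 8.05 and 9.65 FPKM in wildtype libraries. Every deleted library was above every wildtype library, and the deleted libraries also differed widely among themselves while the wildtype libraries lay close together. The means were 47.0 ± 48.2 FPKM (SD, n = 3) and 9.10 ± 0.979 FPKM (SD, n = 4), a ratio of 5.17. The difference was 1.76 (SE 0.57; 1.92 within BI, 1.41 within BM). Without deleted replicate 2 it was 0.96, with a deleted mean of 19.4 FPKM. These levels rest on an inferred 1102, 6802 and 2298 fragments in deleted libraries and on 554 to 816 in wildtype libraries, so counting error is small beside the spread between libraries.

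**Figure D1:**
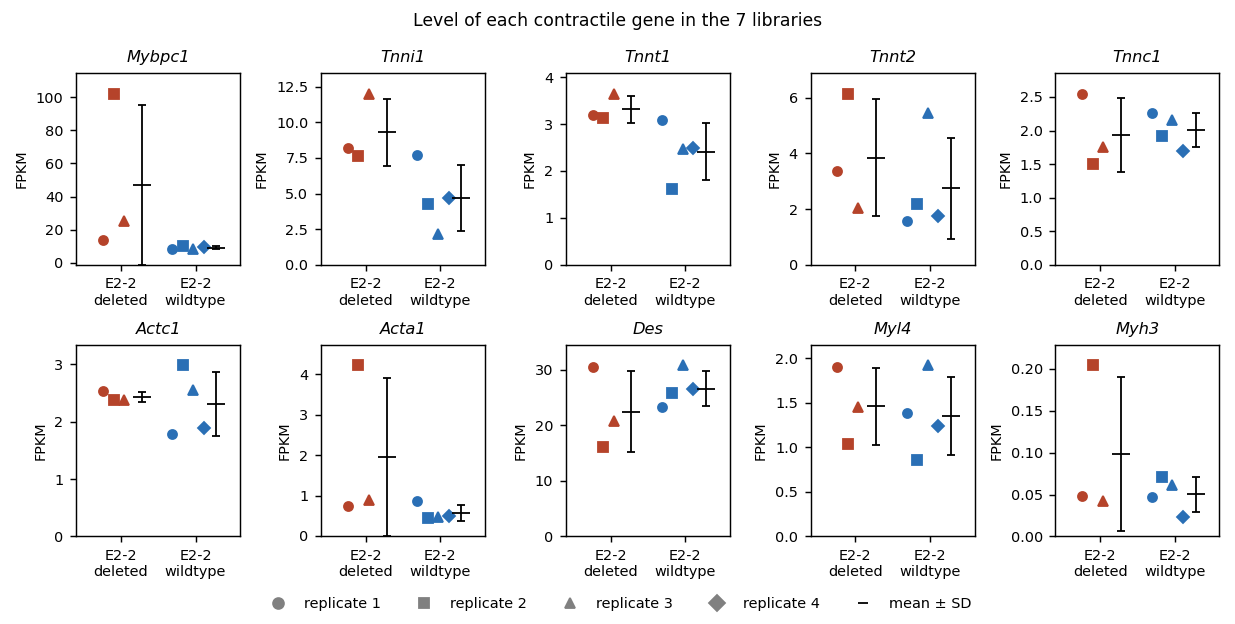
FPKM of each of the 10 genes (one panel each, linear axis) in the 3 E2-2 deleted libraries (left, red) and the 4 E2-2 wildtype libraries (right, blue); marker shape gives the replicate and the black bar the mean ± SD. Mybpc1, Acta1, Tnnt2 and Myh3 were highest in deleted replicate 2, and Des and Tnnc1 were lowest there.

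The slow skeletal troponin genes Tnni1 and Tnnt1 were both highest in deleted replicate 3. Tnni1 (chromosome 1, 137695997 to 137707566), the inhibitory subunit, was at 8.23, 7.65 and 12.0 FPKM in deleted libraries and at 7.70, 4.26, 2.13 and 4.71 FPKM in wildtype libraries. The genotypes overlapped only through wildtype replicate 1, which lay just above deleted replicate 2. The means were 9.30 ± 2.37 FPKM (SD, n = 3) and 4.70 ± 2.30 FPKM (SD, n = 4), and the difference was 0.92 (SE 0.33). It was 0.40 within BI and 1.62 within BM, so its size varied with the prefix more than that of any other member with the same sign in both. Without deleted replicate 2 it was 1.03.

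Tnnt1 (chromosome 7, 4456264 to 4467577), the slow skeletal subunit that binds tropomyosin, was at 3.19, 3.12 and 3.65 FPKM in deleted libraries and at 3.08, 1.61, 2.47 and 2.48 FPKM in wildtype libraries. The groups did not overlap, but the gap between deleted replicate 2 and wildtype replicate 1 was far smaller than the deposited interval of either value (2.16 to 4.09 FPKM in deleted replicate 2, 2.14 to 4.02 FPKM in wildtype replicate 1). The mean was 3.32 ± 0.286 FPKM (SD, n = 3) against 2.41 ± 0.604 FPKM (SD, n = 4), a difference of 0.36 with an SE of 0.18 (0.35 within BI, 0.42 within BM). It was 0.39 without deleted replicate 2.

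Tnnt2 and Tnnc1, the other troponin genes, had no such order. The cardiac troponin T gene Tnnt2 (chromosome 1, 137732962 to 137748838) was at 3.36, 6.14 and 2.03 FPKM in deleted libraries and at 1.58, 2.19, 5.45 and 1.76 FPKM in wildtype libraries. A deleted and a wildtype library, deleted replicate 2 and wildtype replicate 3, stood above the rest. Its difference was 0.39 (SE 0.39), with opposite signs within the prefixes (0.96 within BI, -0.48 within BM), and 0.065 without deleted replicate 2. Tnnc1 (chromosome 14, 32021497 to 32024897), the calcium sensor of slow and cardiac muscle, was at 2.55, 1.50 and 1.76 FPKM in deleted libraries and at 2.26, 1.92, 2.16 and 1.69 FPKM in wildtype libraries. These ranges overlapped almost fully, and the difference was -0.048 (SE 0.18), or 0.060 without deleted replicate 2.

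Summed over the 4 troponin genes, FPKM was 17.3, 18.4 and 19.5 in deleted libraries and 14.6, 9.99, 12.2 and 10.6 in wildtype libraries. Every deleted library was above every wildtype library in this sum, but its genes were chosen with this contrast known. Nothing is therefore read from that order. Tnni1 was the largest of the 4 in each library except wildtype replicate 3, where Tnnt2 was.

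Of the striated muscle actin genes, Acta1 peaked in a single library and Actc1 was even. Acta1 (chromosome 8, 126415666 to 126418636), skeletal alpha-actin, was at 0.741, 4.22 and 0.897 FPKM in deleted libraries and at 0.866, 0.434, 0.466 and 0.502 FPKM in wildtype libraries. Deleted replicate 2, with an inferred 94 fragments, was above all others, the deposited interval there being 3.35 to 5.09 FPKM, and deleted replicate 1 lay inside the wildtype range. The difference was 0.73 (SE 0.39) and 0.22 without deleted replicate 2. Actc1 (chromosome 2, 113873024 to 113878547), cardiac alpha-actin and the main actin of early embryonic striated muscle, was at 2.53, 2.37 and 2.37 FPKM in deleted libraries and at 1.79, 2.98, 2.54 and 1.90 FPKM in wildtype libraries. The deleted libraries fell within the wildtype range, with a difference of 0.068 (SE 0.17) that was -0.012 after quantile normalization and -0.0076 without wildtype replicate 1. The muscle actin genes are near-identical in coding sequence, so the split of fragments among them is uncertain.

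Des had the most negative difference of the 10. Desmin (chromosome 1, 75356918 to 75364290) was at 30.4, 16.2 and 20.8 FPKM in deleted libraries and at 23.3, 25.8, 30.8 and 26.6 FPKM in wildtype libraries. Deleted replicates 2 and 3 were below every wildtype library and deleted replicate 1 was near the top of the wildtype range. The mean was 22.5 ± 7.27 FPKM (SD, n = 3) against 26.6 ± 3.13 FPKM (SD, n = 4), a difference of -0.27 with an SE of 0.20 (-0.13 within BI, -0.44 within BM). Without deleted replicate 2 the difference was -0.070, and without deleted replicate 1 it was -0.51.

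The myosin genes Myl4 and Myh3 were low in all libraries. Myl4 (chromosome 11, 104411976 to 104448533), the embryonic and atrial light chain, was at 1.90, 1.04 and 1.45 FPKM in deleted libraries and at 1.38, 0.864, 1.92 and 1.24 FPKM in wildtype libraries, on an inferred 9 to 34 fragments. The ranges overlapped almost fully, with a difference of 0.071 (SE 0.22) that was -0.056 without deleted replicate 1 and 0.20 without deleted replicate 2. Myh3 (chromosome 11, 66891801 to 66915793), the embryonic heavy chain, was at 0.0482, 0.204 and 0.0421 FPKM in deleted libraries and at 0.0469, 0.0707, 0.0618 and 0.0227 FPKM in wildtype libraries. Deleted replicate 2 was again highest, at about 20.1 inferred fragments against 3 to 8.84 in the other 6 libraries, and its deposited interval (0.113 to 0.295 FPKM) overlapped that of wildtype replicate 2 (0.0130 to 0.128 FPKM). The interval covers counting error only.

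**Figure D2:**
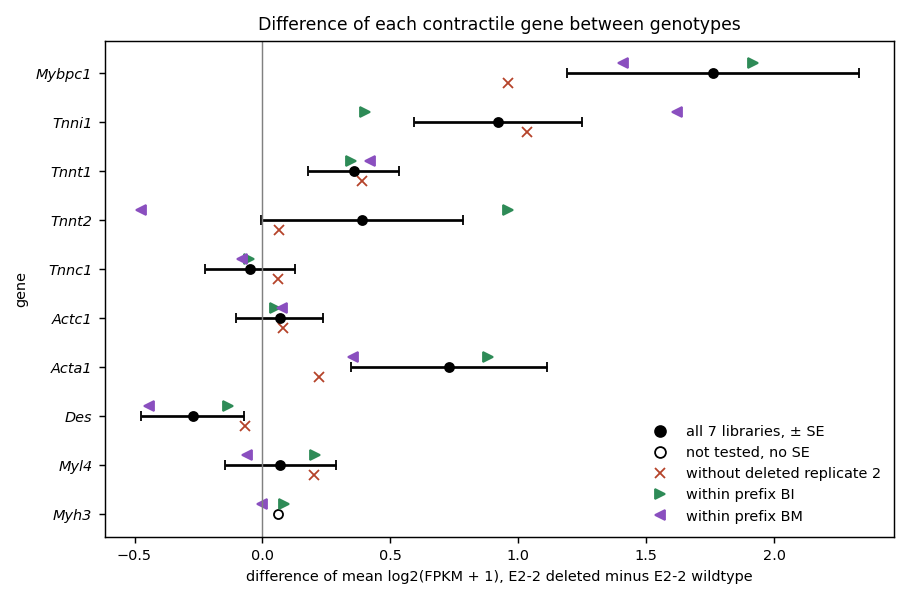
Difference of mean log2(FPKM + 1), E2-2 deleted minus E2-2 wildtype, for each gene (black, ± SE of the limma fit; open circle for Myh3, which was not tested), with the value without deleted replicate 2 (cross) and within the libraries of prefix BI and BM (triangles). Mybpc1, Tnni1, Tnnt1 and Acta1 lie right of 0 under all of these, the values of Tnnt2 fall on both sides, and Des lies left of 0 under all of them.

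Among themselves the members did not share one pattern across libraries. The highest library was deleted replicate 2 for 4 members (Mybpc1, Tnnt2, Acta1 and Myh3), deleted replicate 3 for 2 (Tnni1 and Tnnt1), wildtype replicate 3 for 2 (Des and Myl4), and deleted replicate 1 (Tnnc1) and wildtype replicate 2 (Actc1) for 1 each. Likeness of 2 profiles was measured as the mean absolute difference of log2(FPKM + 1), centred on each gene's mean, over the 7 libraries. By that measure the member most like Mybpc1 was Acta1, which ranked 195 among the 13469 genes by closeness. The 3 closest were Ptpn5, a neuronal phosphatase gene, Slc7a8, an amino acid transporter gene, and Pgr, the progesterone receptor gene, with mean absolute differences of 0.14, 0.16 and 0.18. Slc7a8 was at 31.7, 152 and 44.1 FPKM in deleted libraries and at 15.8, 17.7, 12.9 and 13.7 FPKM in wildtype libraries, so it too was highest in deleted replicate 2 and lowest among the deleted libraries in replicate 1.

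The sum of the 10 levels was 66.7, 145 and 70.1 FPKM in deleted libraries and 50.5, 50.3, 56.0 and 50.5 FPKM in wildtype libraries. Mybpc1 made up 20.6%, 70.7% and 35.8% of it in deleted libraries and 14.4% to 20.2% in wildtype libraries, and Des 45.6%, 11.2% and 29.7% in deleted libraries against 46.1% to 55.0% in wildtype libraries. Without these 2 genes the other 8 summed to 22.6, 26.2 and 24.2 FPKM in deleted libraries and to 18.7, 14.3, 17.2 and 14.3 FPKM in wildtype libraries. The median difference of the 9 members above 1 FPKM was 0.36, and that of all 10 was 0.21, beside -0.051 for all genes tested. Of the 9, 7 had a positive difference, against 39.3% of all genes tested. Since the members were chosen with this contrast known, nothing is read from these sums, this count or the medians. The median was 0.20 without deleted replicate 2 and 0.075 within BM.

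Among troponin I and T genes, slow, fast and cardiac forms were found side by side, while Mybpc1 and Tnnc1 led their gene families. The sarcomeric motors were near 0. Mybpc1 made up 98.5% to 99.8% of the FPKM of its family over the 7 libraries, the fast and cardiac forms Mybpc2 and Mybpc3 staying at or below 0.0952 and 0.0191 FPKM. Among troponin I genes, the slow Tnni1 made up 57.7% to 77.5% in deleted libraries and 38.1% to 67.1% in wildtype libraries, and the cardiac Tnni3 exceeded the fast Tnni2 in each library except deleted replicate 2. Cardiac Tnnt2, slow Tnnt1 and fast Tnnt3 were of the same order, at means of 3.22, 2.80 and 1.78 FPKM over all 7 libraries. Tnnc1 exceeded the fast form Tnnc2, which averaged 0.115 FPKM.

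None of the 7 sarcomeric myosin heavy chain genes, the motors of the thick filament, passed 0.237 FPKM in any library. That highest value was for Myh8, the perinatal form, in deleted replicate 3. The giant scaffold gene Ttn reached at most 0.0497 FPKM. Actc1 and Acta1 were each at most 0.615% of the FPKM of the muscle actins in any library, where the smooth muscle actin Acta2 made up 84.2% to 88.5%. Des was 1.96% to 3.56% of the intermediate filament FPKM examined, in which Vim, the mesenchymal filament gene, led.

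**Figure D3:**
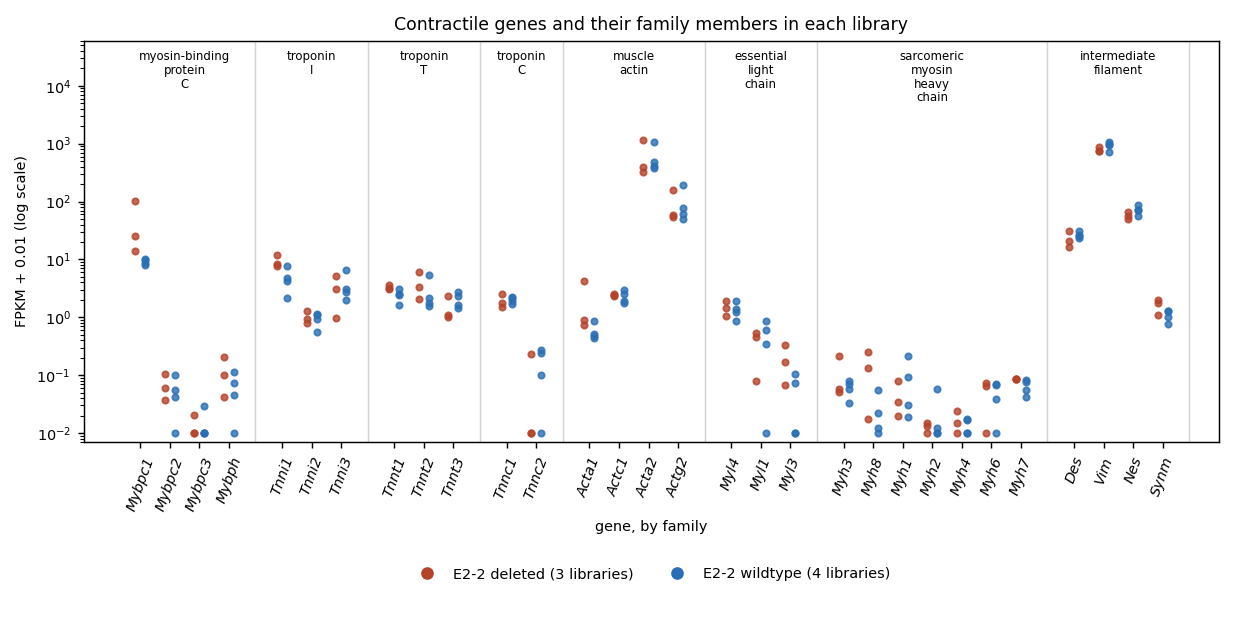
FPKM + 0.01 (log axis) of the contractile genes and their family members, grouped by family, in each E2-2 deleted library (left of each pair, red) and each E2-2 wildtype library (right of each pair, blue). The sarcomeric myosin heavy chains stay at or below 0.237 FPKM, while Mybpc1 is nearly alone in its family and Acta2 far above Acta1 and Actc1.

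Of the other sarcomere genes, 2 of those tested, Csrp3 and Tmod1, had deleted libraries above all wildtype libraries, against 2.84% of all genes. Of 42 listed, 12 were tested. By limma 0 passed an adjusted p of 0.05 (0% of all genes). At an unadjusted p under 0.05 there were 2 higher in deleted libraries (3.29% of all genes) and 0 lower (1.20% of all genes). Both unadjusted counts were the same without deleted replicate 2, where limma gave 250 of all 13469 genes in either direction. The median difference of the 12 was -0.017, beside -0.051 for all genes tested. Csrp3, the muscle LIM protein, was at 1.03, 4.69 and 1.72 FPKM in deleted libraries and at 0.763, 0.377, 0.0553 and 0.287 FPKM in wildtype libraries. Tmod1, which caps the pointed end of thin filaments and is also found outside muscle, was at 5.82, 24.5 and 8.87 FPKM in deleted libraries and at 5.03, 4.05, 5.66 and 3.72 FPKM in wildtype libraries. Both genes were highest in deleted replicate 2. Their differences were 1.23 (SE 0.37) and 1.11 (SE 0.41), with a limma adjusted p of 0.795 for each, and 0.80 and 0.56 without deleted replicate 2. The unadjusted p of Tmod1 was 0.0269, and 0.0553 and 0.0602 without wildtype replicates 2 and 4. Myom1, an M-band protein gene, and Tnnt3 came next by p, at 0.45 (SE 0.43; -0.12 without deleted replicate 2) and -0.30 (SE 0.25).

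Genes that assemble or break down sarcomeres held 1 more gene of this kind. Of the 15 listed, 5 were tested, with 0 past the adjusted threshold by limma. At an unadjusted p under 0.05 by limma there was 1, higher in deleted libraries (3.29% of all genes). Fbxo32, a ubiquitin ligase gene of muscle atrophy, was at 6.48, 24.3 and 7.17 FPKM in deleted libraries and at 4.42, 4.63, 3.44 and 3.91 FPKM in wildtype libraries. The groups did not overlap, with the deleted libraries above, as in 2.84% of all genes. Its difference was 1.19 (SE 0.40, limma adjusted p = 0.795), or 0.62 without deleted replicate 2. The heat shock genes Hspb1 and Cryab differed by 0.80 (SE 0.38) and 0.53 (SE 0.47), and by 0.38 and 0.045 without deleted replicate 2. Of the 25 excitation and metabolism genes of muscle, 4 were tested, with 0 at an unadjusted p under 0.05; the largest of their differences in size was that of Chrnb1, an acetylcholine receptor subunit gene, at -0.36 (SE 0.35; -0.10 without deleted replicate 2).

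Of the skeletal muscle regulators, Pax7 and Myf5 were listed at 0 in 6 of 7 libraries, as was the cardiac regulator Nkx2-5. Other genes of the cardiac list, which are also expressed outside the heart, were well above 0, with means over the 7 libraries of 16.6 FPKM for Gata6, 6.01 FPKM for Hand2 and 5.53 FPKM for Isl1. Myod1 was at 0.0278, 0.0673 and 0 FPKM in deleted libraries and at 0.0324, 0.326, 0 and 0 FPKM in wildtype libraries. Myog was at 0.393, 0.0433 and 0.160 FPKM in deleted libraries and at 0, 1.15, 0.0299 and 0.518 FPKM in wildtype libraries. Both were highest in wildtype replicate 2. In that library Actc1 also had its highest level, while Tnnt1, Acta1 and Myl4 had their lowest. Of 22 myogenic regulators 9 were tested, among them the broadly expressed Mef2a, Mef2c and Mef2d, and of 13 cardiac genes 5 were tested; limma gave 0 at an adjusted p under 0.05 and 0 at an unadjusted p under 0.05 in both lists.

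Smooth muscle genes were abundant in all libraries, and 0 of them had genotypes that did not overlap, against 4.89% of all genes. Without deleted replicate 2 there were 2, both lower in deleted libraries, against 2.58% of all genes. Acta2, smooth muscle alpha-actin, was at 398, 1158 and 328 FPKM in deleted libraries and at 379, 486, 1061 and 411 FPKM in wildtype libraries. Deleted replicate 2 and wildtype replicate 3 stood above the other 5, as they did for Tnnt2. Of the 17 smooth muscle genes 16 were tested, with 9 positive and 7 negative differences, a median of 0.033 and, by limma, 0 at an adjusted or unadjusted p under 0.05. The summed level of the 17 was 1612, 3615 and 1758 FPKM in deleted libraries and 1613, 1832, 3790 and 1913 FPKM in wildtype libraries. Myocd, the coactivator that drives smooth muscle and cardiac genes, was at 2.71, 19.9 and 3.19 FPKM in deleted libraries and at 1.32, 2.86, 3.83 and 2.25 FPKM in wildtype libraries, a difference of 1.00 (SE 0.59; 0.20 without deleted replicate 2).

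**Figure D4:**
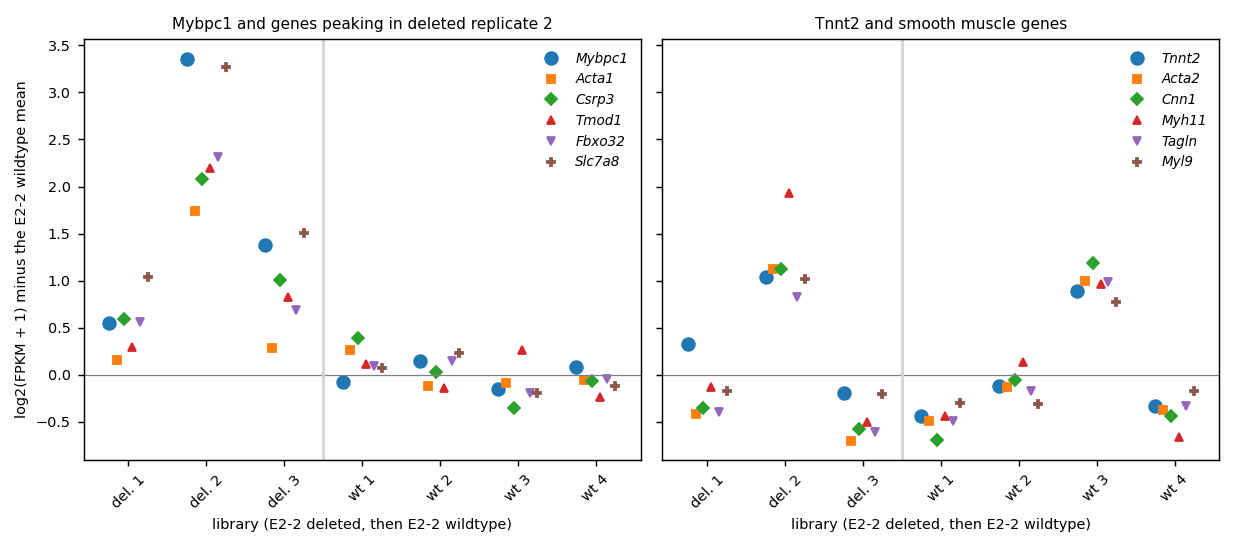
Log2(FPKM + 1) minus the E2-2 wildtype mean in each library (deleted left of wildtype), for Mybpc1 with 5 genes that peak in deleted replicate 2 (left panel) and for Tnnt2 with 5 smooth muscle genes (right panel). In the left panel the other libraries lie below deleted replicate 2 for each gene, and in the right panel deleted replicate 2 and wildtype replicate 3 lie above the other 5 libraries.

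Markers of pigment cells and of enamel and dentin were also high in the deleted libraries. The lists used here were chosen with earlier results of these data known, so nothing is read from their counts. Of all genes tested, 3.29% were higher and 1.20% lower in deleted libraries at an unadjusted p under 0.05 by limma. Without deleted replicate 2 there were 250 of 13469 genes in either direction, the count to set beside those given below without that library. The 10 melanocyte markers summed to 46.4, 97.0 and 129 FPKM in deleted libraries and to 35.6, 20.3, 10.3 and 17.3 FPKM in wildtype libraries, with 7 of the 8 tested at an unadjusted p under 0.05 (6 without deleted replicate 2) and 0 past the adjusted threshold by limma. The 9 enamel and dentin markers summed to 28.8, 40.9 and 51.6 FPKM in deleted libraries and to 20.2, 7.16, 3.03 and 1.15 FPKM in wildtype libraries, with 4 of the 4 tested at an unadjusted p under 0.05 by limma (2 without deleted replicate 2), 0 past the adjusted threshold, and Amtn and Odam at 0 throughout. In these sums, as for Tnni1, deleted replicate 3 was the highest library and wildtype replicate 1 the highest wildtype library. Both also held for the sum of the neural markers given below. The 12 cartilage and bone markers summed to 477, 803 and 605 FPKM in deleted libraries and to 438, 636, 740 and 528 FPKM in wildtype libraries. Spp1 alone was at 411, 714 and 504 FPKM in deleted libraries and at 359, 599, 697 and 477 FPKM in wildtype libraries. Of the 10 tested, 7 had a positive and 3 a negative difference, from -0.99 (Col2a1) to 2.66 (Ibsp). Acan, not tested, was at 0.274, 0.386 and 0.318 FPKM in deleted libraries and at 0.919, 0.927, 1.44 and 1.15 FPKM in wildtype libraries. Neural markers (9 genes) summed to 33.5, 70.7 and 181 FPKM in deleted libraries and 139, 69.7, 29.0 and 26.7 FPKM in wildtype libraries. Endothelial markers (6 genes) summed to 222 to 344 FPKM in deleted libraries and to 182 to 388 FPKM in wildtype libraries. The 11 fetal kidney markers summed to 383, 132 and 267 FPKM in deleted libraries and to 313, 241, 354 and 448 FPKM in wildtype libraries. Of the tested genes, limma gave an unadjusted p under 0.05 for 4 of 10 cartilage and bone markers, all higher in deleted libraries (3 without deleted replicate 2), for 1 higher and 1 lower of 6 endothelial markers (0 higher and 1 lower without deleted replicate 2), and for 0 of 8 neural and 0 of 11 kidney markers, with 0 past the adjusted threshold. The 9 non-muscle actin, myosin and filament genes, present in most cells, gave 0 by either threshold, 2 positive and 7 negative differences, and a median of -0.066. The part of these other cells in the levels of the contractile genes was not tested, and in whole cultured kidneys fewer cells of a type and less RNA per cell cannot be told apart.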

How the data were processed

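RNA of cultured kidneys was sequenced in 7 libraries (Trizol extraction, poly-A selection and TruSeq libraries, per the labels' protocols). The authors deposited 1 table of gene FPKM per library, with the bounds of each FPKM's interval, per the file headers. The submitters' processing notes name CASAVA 1.8.2, TopHat2 2.0.4 and Cufflinks 2.0.2, without roles. The genome build is not given in the sources used here, nor are strand handling and annotation. Coordinates of genes are printed as deposited and do not match those of the GRCm38.p6 promoter windows, so they cannot be compared.

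Each table had 23699 entries. Entries of 1 symbol were summed (248 symbols), and 25 symbols turned into dates in 1 table were restored from another table with identical loci. Genes whose estimate failed or had too little data in 1 or more libraries, or whose locus spanned under 200 bases, were left out (22363 remained). The 13469 genes with a mean of at least 1 FPKM were tested by limma (version 3.58.1, R 4.3.3) on log2(FPKM + 1), a linear model over all 7 libraries with a mean-variance trend, 2-sided, with Benjamini-Hochberg adjustment over all genes tested; it was tested on simulated data. A log2 difference on this scale understates the change of genes near 1 FPKM. Fragment numbers were inferred as the square of 2 times the FPKM over the distance to the upper bound; 78.7% to 80.0% lay within 0.05 of a whole number among genes with a single start and under 300 fragments. Relative depth is the median ratio of inferred fragments to FPKM.

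The members and the 13 other gene lists were chosen with earlier results of these data known, so nothing is read from counts over them. Named genes were the members; Tcf4, Ctnnb1, Acta2, Myocd and muscle regulators; in each list the genes with unadjusted p under 0.05 and up to 4 of smallest p; and the 3 closest profiles to Mybpc1. Genes in text beyond that rule were chosen after their values were seen. Promoters are RefSeq windows of GRCm38.p6, matched by symbol. Alternatives were other pseudocounts, filters, scalings, library weights, the name prefix as a term, and leaving out each library; list counts without deleted replicate 2 were added after the data were seen.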

Additional observations from a re-analysis of the deposited data

Results flagged for a closer look

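Of 75 genes examined, 10 had a wildtype library whose distance from its nearest neighbour was above Dixon's critical share of the wildtype range for 4 samples; chance flags about 1 group in 20. Among the contractile genes, Tnnt2 was at 5.45 FPKM in wildtype replicate 3, where the next wildtype library was at 2.19 FPKM, and Acta1 was at 0.866 FPKM in wildtype replicate 1, where the next was at 0.502 FPKM. Acta2 was also set apart in wildtype replicate 3, at 1061 FPKM. Of the muscle regulators, Myod1 was at 0.326 FPKM in wildtype replicate 2, Pax7 at 0.00935 FPKM in wildtype replicate 3 and Nkx2-5 at 0.0334 FPKM in wildtype replicate 4, the last 2 being the single wildtype libraries above 0. With the other wildtype libraries at 0, a flag for Pax7 and Nkx2-5 was certain, so the chance share does not apply to them. Ptpn5 was at 2.93 FPKM in wildtype replicate 4 and Pgr at 2.24 FPKM in wildtype replicate 1. The mineralized tissue genes Dmp1 and Ibsp were at 4.97 and 23.6 FPKM in wildtype replicate 1. The deleted group, with 3 libraries, was too small for this criterion.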

How the results depend on the processing

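The count of genes past an adjusted p of 0.05 was 4 with no filter on low values and 1 with a weight per library, and 0 under every other alternative run, leaving out any single library included. The count at an unadjusted p under 0.05 was 984 with no filter, 394 at a minimum of 5 FPKM, 1141 with a weight per library, and 250 to 1473 when single libraries were left out. The median difference of the members was 0.92 at a minimum of 5 FPKM, where only 3 members were left, 0.19 with a weight per library, 0.075 within BM, and 0.20 to 0.38 when single libraries were left out. Of the other sarcomere genes, 0 passed under every alternative. No paired analysis was possible because the labels carry no replicate numbers that tie a deleted to a wildtype library.

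The sign of the difference turned for the genes named next, and the cause was not tested. Among the members, leaving out single libraries gave -0.19 to 0.060 for Tnnc1, -0.0076 to 0.16 for Actc1 and -0.056 to 0.20 for Myl4. Actc1 differed by -0.012 with quantile normalization. Within BM, Tnnt2 differed by -0.48 and Myl4 by -0.062. For genes other than members, signs within a prefix are not listed here. Acta2 differed by -0.29 with a weight per library, by -0.0068 with the prefix as a term, and by -0.56 to 0.35 when single libraries were left out. Casq1 differed by 0.0090 with median-of-ratios scaling, Synpo2 by -0.063 with a weight per library and Myh10 by 0.030 with quantile normalization. When single libraries were left out, the differences spanned -0.30 to 0.030 for Tcf4, -0.12 to 0.73 for Myom1, -0.21 to 0.12 for Casq1, -0.25 to 0.033 for Smyd2, -0.054 to 0.32 for Gata6, -0.17 to 0.0050 for Myh10, -0.60 to 0.14 for Elavl4 and -0.40 to 0.048 for Cdh5. Low depth limits Myh3, Myl4, Tnnc1 and, outside deleted replicate 2, Acta1, each with at most 34.0 inferred fragments in the libraries concerned.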

Other observations

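Of the 61 genes in the sarcomere, excitation and assembly lists that were not tested (all under the minimum level except Tpm3, left out for its status or span), 6 had every deleted library above every wildtype library (Myh7, Myot, Smpx, Pvalb, Cav3 and Unc45b) and 1 had them below. That 1, listed as Kbtbd10, was at 0.138, 0.0478 and 0.127 FPKM in deleted libraries and at 0.231, 0.174, 0.245 and 0.363 FPKM in wildtype libraries. Of the tested genes, 2.84% had the deleted libraries above and 2.05% below, but no such share was taken over genes under the minimum level. Nothing is therefore read from this split. Some of the 6 lay near 0, with Myh7 at most 0.0772 FPKM and Myot at most 0.139 FPKM. The highest 3 of the 6 are described here, chosen after their values were seen. Smpx, a small muscle protein gene, was at 0.667, 2.13 and 1.16 FPKM in deleted libraries and at 0.566, 0.335, 0.324 and 0.573 FPKM in wildtype libraries. Cav3, the muscle caveolin gene, was at 0.142, 1.38 and 0.345 FPKM in deleted libraries and at 0.0277, 0, 0 and 0.104 FPKM in wildtype libraries. Unc45b, a chaperone gene for muscle myosin, was at 1.09, 1.10 and 1.22 FPKM in deleted libraries and at 0.719, 0.934, 0.159 and 0.474 FPKM in wildtype libraries. Smpx and Cav3 were highest in deleted replicate 2, as Mybpc1 was, and Unc45b was even among the deleted libraries, as Tnnt1 was.

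Closest profiles of other members, also read after the values were seen, belonged to different gene groups. The closest to Tnni1 was Tyrp1, a pigment enzyme gene, at a mean absolute difference of 0.13, and Tyrp1 was at 1.08, 1.69 and 3.14 FPKM in deleted libraries and at 1.43, 0.565, 0.0908 and 0.681 FPKM in wildtype libraries. For Tnnt2 the closest were Ecm1, an extracellular matrix gene, Myl9, a smooth muscle light chain gene, and Nexn, which binds actin, at 0.12, 0.16 and 0.17. With 13469 genes and 7 libraries, close profiles are found for any gene, and nothing was tested here.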
